A study of Arabidopsis thaliana with 4 samples.

Results

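The core cell cycle genes considered here are 47 genes of Arabidopsis thaliana, listed by gene identifier, that encode cyclins, cyclin-dependent kinases (CDKs), the KRP and SIM/SMR inhibitors of these kinases, the activators of the anaphase-promoting complex (APC/C) with the cytokinesis syntaxin KNOLLE, and the E2F factors with the retinoblastoma protein RBR1. They are 47 of the 32833 genes in the count tables, and all 47 were found there. The tables name genes by identifier only, so names in common use are given here. For some genes RefSeq holds another symbol, such as ICK1 for KRP1, or none, as for KRP4. The genes were measured in nuclei of 5 mm root tips of wild-type Col-0 plants by single-nucleus multiome sequencing, which reads RNA and accessible chromatin from the same nucleus. Of the 4 libraries, 2 came from control plants grown on 1/2MS medium and 2 from plants under osmotic stress, for which the study's methods state that sorbitol was added to the same medium. The groups shared their genotype and tissue, no transgene or mutation was involved, and each library pooled the nuclei of many root tips. The study calls the libraries of a group biological replicates without saying what was grown separately, so the p-values below measure the spread between these libraries.

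Cyclins bind CDKs and switch them on. D-type cyclins act mainly at entry into the cell cycle, where the kinase releases E2F factors from RBR1 and so allows DNA replication, A-type cyclins act mainly in S phase and G2, and B-type cyclins act at mitosis. KRP and SIM/SMR proteins bind cyclin-CDK complexes and inhibit them, and CDC20 and CCS52 proteins direct the APC/C to destroy cyclins. In the root tip, cells divide in the meristem next to the stem cell niche and then often replicate DNA without dividing (endoreduplication) while they elongate, a switch in which SIM and CCS52A1 are known to take part.

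A barcode counted as a nucleus when it held over 1000 and under 25000 RNA counts, where 1 count is 1 RNA molecule marked by its own identifier. This kept 23532 of 24474 barcodes, with 3213 and 6133 nuclei in control replicates 1 and 2 and 7687 and 6499 in stress replicates 1 and 2. Total RNA counts ran from 17567594 to 37717096 a library. The control libraries differed more from each other than the stress libraries did: the SD of the log2 deviations from the group mean was 0.43 between controls and 0.093 between stress libraries over 17835 genes. Of the 19 clusters of nuclei, cluster 13 held 333 nuclei of control replicate 1 and at most 1 of any other library, and cluster 10 held 765 nuclei of control replicate 2 and at most 13 of any other. A further 320 barcode sequences occurred in more than 1 library. Every core cell cycle gene was counted in every library, from 11 counts of CYCD6;1 (AT4G03270) in control replicate 2 upwards.

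Nuclei were clustered on genes other than the 47, and a cluster took a class name ending in -like only from lists of marker genes that hold none of the 47. The G2/M-like class, which rests on 12 markers such as the kinesin HIK and the kinase AUR1, numbered 131 and 197 nuclei in the controls and 272 and 221 under stress. No cluster qualified as S phase-like at the main resolution of 0.6, but 1 did in a finer clustering, given below with the shares of nuclei. Levels within a class are given as CPM, the counts of a gene per 1e6 RNA counts of the nuclei of that class in that library. The clusters were drawn on RNA of the same nuclei, and the markers of the G2/M-like class are themselves genes of mitosis, so the levels between classes are described without a test.

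The core cell cycle genes divided into those concentrated in G2/M-like nuclei and those spread over the root. For 16 of the 47 the CPM in G2/M-like nuclei was over 5 times that in all other nuclei in every library, and for 14 of these it was over 10 times. For 11 genes it was below the level of the other nuclei in every library. Among 11 groups of nuclei compared, 22 genes had their highest mean CPM in the G2/M-like class, and 17 of them were highest there in all 4 libraries.

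All 8 B-type cyclins were among the 16 genes. CYCB1;2 (AT5G06150) stood at 314 and 285 CPM in G2/M-like nuclei of the controls and at 287 and 326 CPM in those of the stress libraries, against 5.95, 8.47, 8.37 and 6.36 CPM in the other nuclei of the same libraries. These levels were high in the G2/M-like nuclei of control and stress alike, and 71.7% of all counts of this cyclin lay in that class. The ratio of G2/M-like to other nuclei ran from 22.9 to 45.0 for CYCB1;1 (AT4G37490), from 29.6 to 48.5 for CYCB1;3 (AT3G11520) and from 35.5 to 57.9 for CYCB1;4 (AT2G26760). It ran from 27.1 to 54.4 for CYCB2;1 (AT2G17620), from 33.9 to 63.1 for CYCB2;2 (AT4G35620), from 19.5 to 30.7 for CYCB2;3 (AT1G20610) and from 31.5 to 41.0 for CYCB2;4 (AT1G76310). Counts of AT5G06150 may hold reads of AT1G34460, a sequence 90.3% identical to it over 1469 bases, and those of AT1G20610 reads of AT1G20590, 94.7% identical over 972 bases.

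The genes that act late in mitosis were concentrated still more. KNOLLE (KN, AT1G08560), the syntaxin that fuses vesicles into the cell plate, reached 955, 943, 842 and 899 CPM in G2/M-like nuclei, in the order control replicates 1 and 2 and stress replicates 1 and 2, against 10.1, 17.2, 17.3 and 19.1 CPM elsewhere. No library was an exception, and 77.3% of the KN counts came from this class. The APC/C activators of mitosis behaved alike, with 81.2% of the counts of CDC20.1 (AT4G33270) and 77.6% of those of CCS52B (AT5G13840) in G2/M-like nuclei. CDC20.1 and its neighbour CDC20.2 (AT4G33260) are 94.9% identical over 1729 bases, so their separate values are uncertain. The CCS52A activators lay elsewhere. CCS52A1 (AT4G22910) was counted 0, 4, 9 and 4 times in G2/M-like nuclei and was highest in cluster 5, at 22.0, 16.9, 19.1 and 23.9 CPM. CCS52A2 (AT4G11920) stood at 0.464 to 0.785 times the level of other nuclei in the G2/M-like class.

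Among the CDKs, the plant-specific B-type kinases split from CDKA;1 (AT3G48750), the kinase that acts through the whole cycle. The ratio of G2/M-like to other nuclei was 15.5 to 18.9 for CDKB2;2 (AT1G20930), 10.3 to 15.4 for CDKB2;1 (AT1G76540) and 8.45 to 12.1 for CDKB1;2 (AT2G38620), but 2.23 to 2.79 for CDKB1;1 (AT3G54180). CDKA;1 lay between 1.00 and 1.14, so its level in G2/M-like nuclei was close to that of the other nuclei in every library.

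Of the 6 A-type cyclins only CYCA1;1 (AT1G44110) passed 5 times in every library, at 7.95 to 9.62 times. CYCA2;4 (AT1G80370) stood at 3.69 to 4.37 times, while CYCA2;1 (AT5G25380), with 42 counts in the class, ranged from 1.11 to 7.70 times and CYCA2;3 (AT1G15570) from 0.874 to 2.85 times. The CYCA3 cyclins, known from S phase, were low in the class: the ratio was 0.304 to 0.635 for CYCA3;2 (AT1G47210) and 0.505 to 0.613 for CYCA3;1 (AT5G43080). CYCA3;2 was highest in cluster 1, at 27.9, 22.9, 27.7 and 28.3 CPM. Cluster 1 stayed unnamed because its 8 detected S phase markers led those of the stem cell niche by too little.

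None of the 7 D-type cyclins passed 5 times. CYCD3;2 (AT5G67260) came nearest, at 2.58 to 2.95 times, and was next highest in cluster 1. The others had their highest mean CPM in different groups of nuclei: CYCD1;1 (AT1G70210) in cluster 6, CYCD2;1 (AT2G22490) in cluster 1, CYCD3;1 (AT4G34160) and CYCD3;3 (AT3G50070) in the lateral root cap-like class, and CYCD4;1 (AT5G65420) in the cortex-like class. AT4G03270, the cyclin of the formative division that makes cortex and endodermis, was highest by mean in endodermis-like nuclei, but on 0, 0, 1 and 3 counts.

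Of the 11 inhibitors, 5 were lower in G2/M-like nuclei than in other nuclei in every library. KRP1 (AT2G23430) stood at 0.159 to 0.291 times the level of other nuclei in the G2/M-like class, KRP2 (AT3G50630) at 0.418 to 0.524 times and KRP6 (AT3G19150) at 0.359 to 0.810 times. SIM (AT5G04470), the gene whose loss gives multicellular trichomes, stood at 0.112 to 0.478 times, and SMR1 (AT3G10525), which drives the giant cells of the sepal, at 0.0960 to 0.468 times. Among the 11 groups of nuclei, KRP1 was highest by mean in cluster 0, an unnamed cluster led by the cytokinin oxidase gene CKX4, at 103, 84.9, 70.7 and 73.5 CPM. SIM, SMR1 and KRP2 were highest by mean in cortex-like nuclei, which join clusters 4 and 12 of unlike SMR1 level (given below). Cluster 4 was not compared by itself. In stress replicates 1 and 2 it held 28.6% and 27.2% of the KRP1 counts in 13.1% and 13.7% of the nuclei. Cluster 0 held 38.3% and 37.8% in 25.9% and 26.8%. The other 6 inhibitors were not lower in G2/M-like nuclei in every library. KRP4 (AT2G32710) was 1.36 to 2.46 times as high in the G2/M-like class, KRP7 (AT1G49620) 1.85 to 3.70 times and SMR4 (AT5G02220) 1.16 to 1.66 times, while the ratios of KRP3 (AT5G48820), KRP5 (AT3G24810) and SMR5 (AT1G07500) lay on both sides of 1.

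The E2F activator E2FA (AT2G36010) stood at 2.10 to 3.59 times in the G2/M-like class and E2FC (AT1G47870), which can repress its targets, at 1.12 to 2.01 times. E2FB (AT5G22220) ranged from 0.370 to 1.30 times. RBR1 (AT3G12280) was lower in the class in every library, at 0.525 to 0.787 times, and was highest in cluster 1 at 28.8, 15.5, 22.8 and 22.5 CPM.

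**Figure D1:**
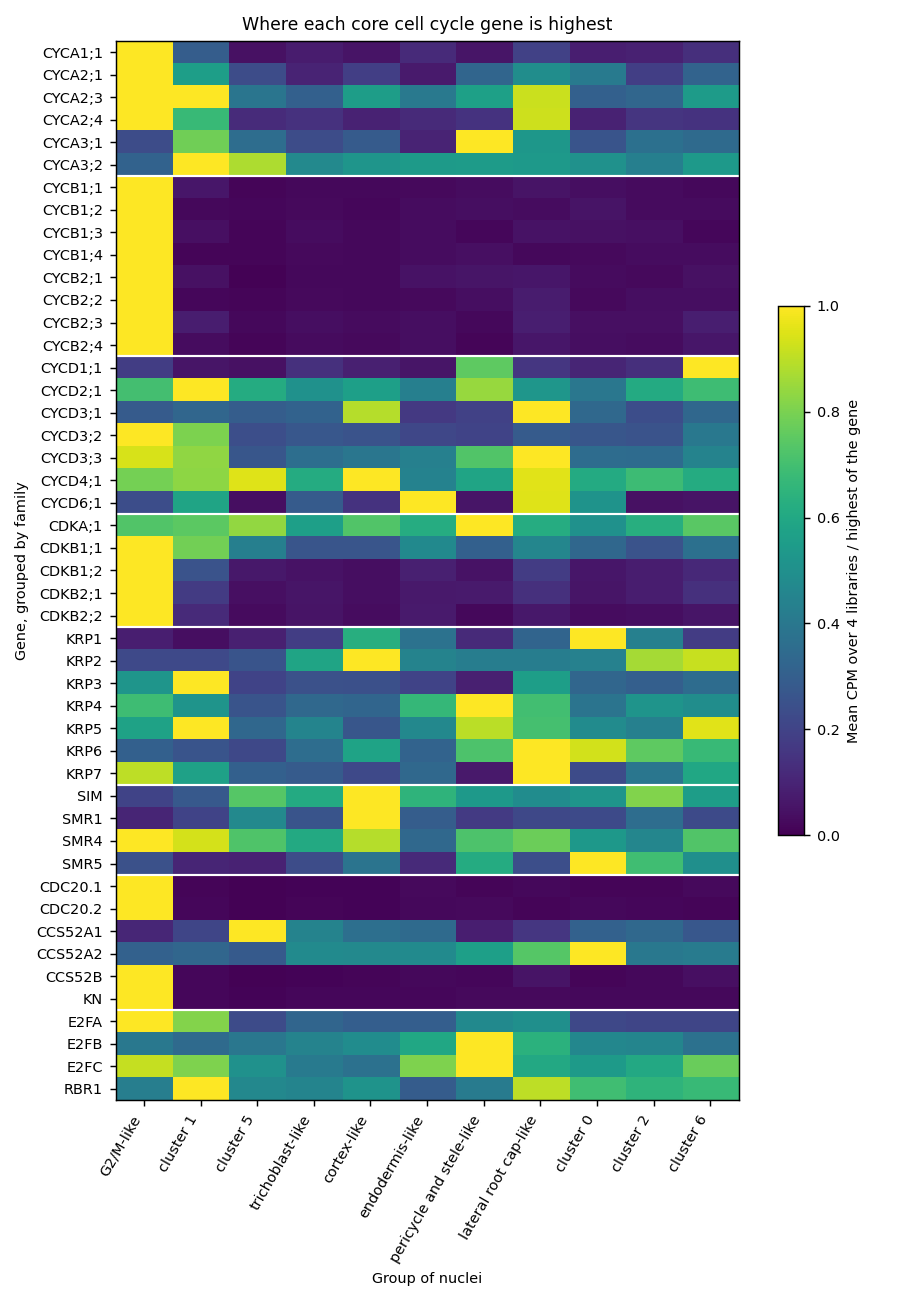
Mean CPM of each of the 47 genes (vertical axis, white lines between families) over the 4 libraries in 11 groups of nuclei (horizontal axis), divided by the highest value of that gene, so that a row shows where a gene is high and rows cannot be compared in level. All 8 B-type cyclins, CDC20.1, CDC20.2, CCS52B and KN are bright in the G2/M-like column and dark elsewhere, whereas SIM and SMR1 are brightest in the cortex-like column and KRP1 in cluster 0.

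The promoters were read from the TAIR10.1 genome of RefSeq, from 250 bases before to 50 bases after each gene start, on both strands. Genes of G2 and mitosis in plants often carry the mitosis-specific activator (MSA) element, whose core AACGG is bound by MYB3R factors. The core occurred in 22 of the 47 windows (46.8%) and in 24.6% of the 27443 windows of all genes. It occurred 3 or more times in 11 of the 47 and in 1.06% of all windows. The share of a gene's RNA counts that lay in G2/M-like nuclei had a median of 65.1% over these 11 genes, of 7.92% over the 11 genes with 1 or 2 matches, and of 6.95% over the 25 genes without a match. The genes over 5 times as high in G2/M-like nuclei numbered 8, 3 and 5 in these sets. The 5 without a match were CDC20.1 (81.2%), CCS52B (77.6%), CYCB2;4 (68.9%), CDKB2;1 (44.5%) and CDKB1;2 (37.7%). KRP7, with 5 matches, had a share of 14.3%. The windows below are shown because they set 4 B-type cyclins, which are concentrated in G2/M-like nuclei, beside KRP1 and KRP2, which are not, although KRP1 held 7 matches and KRP2 held 3. Each is given 5′ to 3′ on the strand of the gene, with the MSA core in capitals. They lie at chr5:1861731-1861756 (minus strand), chr3:3627297-3627322 (minus), chr2:7663960-7663985 (plus), chr4:16901462-16901487 (plus), chr2:9978120-9978145 (minus) and chr3:18800227-18800252 (plus), in the order printed.
AT5G06150, B-type cyclin: ttaatcatctAACGGcaacagatgaa
AT3G11520, B-type cyclin: ttcatcatccAACGGctagaagtcta
AT2G17620, B-type cyclin: ctcatgatccAACGGttatattctaa
AT4G35620, B-type cyclin: ttcatgatccAACGGtcatcttaatc
KRP1: acatccaaatAACGGcgcctccagtt
KRP2: ctcgatttttAACGGcgccgtcaaat

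An E2F site was searched as TTTCCCGC, TTTGGCGC, TTTCGCGC or TTTGCCGC on both strands. It occurred in 2 of the 47 windows and in 1.76% of all windows. The 2 genes were RBR1, at chr3:3919419-3919444, and the D-type cyclin AT3G50070, at chr3:18566922-18566947, both on the minus strand, and their windows are shown because both genes belong to the step that E2F factors control. The capitals mark the E2F site, which in the D-type cyclin reads from the opposite strand.
RBR1: aatatgtaaTTTCCCGCgtgacctaa
AT3G50070, D-type cyclin: ttttctcgcGCGCCAAAcatccgaat

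**Figure D2:**
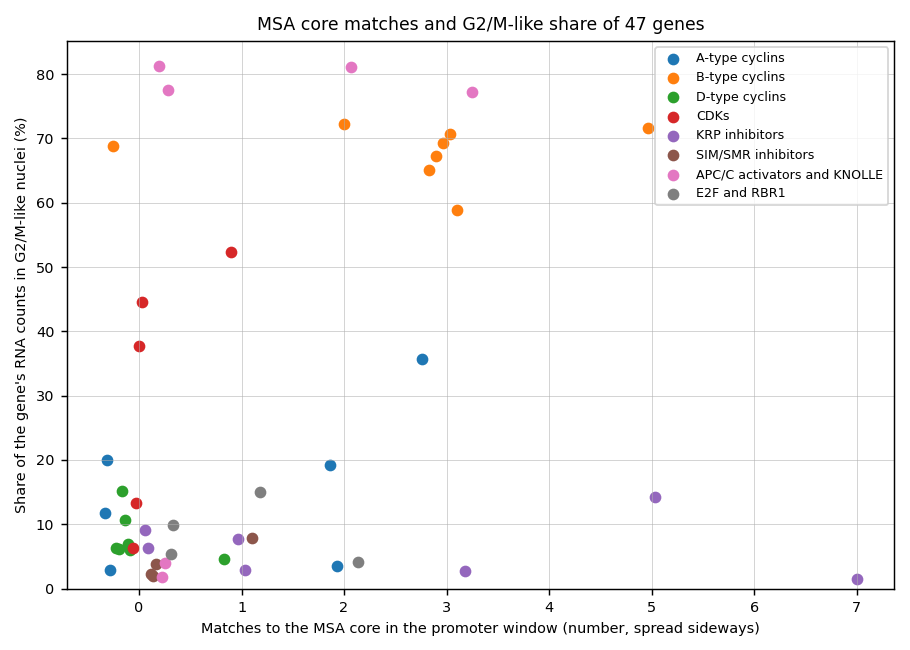
Share of each gene's RNA counts, over all 4 libraries, that lay in G2/M-like nuclei (vertical axis, %) against the number of MSA core matches in its promoter window (horizontal axis, points spread sideways so that they do not overlap), with 1 point for each of the 47 genes coloured by family. The 11 genes with 3 or more matches include 6 B-type cyclins at 58.9% to 71.7% as well as KRP1 at 1.502% with 7 matches. The 25 genes with none include CDC20.1 at 81.2%, the highest share.

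To ask whether osmotic stress changed these genes, counts were summed over all nuclei of a library and compared by edgeR's quasi-likelihood test across all genes. Levels here are scaled CPM, which are CPM corrected for library composition by TMM factors, and log2 changes are stress minus control with their SE. A gene was called when its p-value, adjusted over all 20587 genes tested, was under 0.05. The sums cannot tell a gene with less RNA per nucleus from one with fewer nuclei that express it.

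The inhibitors KRP1 and KRP2 rose, and no other core cell cycle gene was called. KRP1 stood at 15.3 and 17.0 scaled CPM in the controls and at 35.1 and 36.8 under stress. KRP2 stood at 12.7 and 12.2 in the controls and at 20.3 and 19.7 under stress. For both genes the groups did not overlap and replicates lay close together. KRP1 (chromosome 2, 9976590 to 9978090, minus strand) rose by 1.15 ± 0.11 on the log2 scale (edgeR adjusted p = 0.0227) and KRP2 (chromosome 3, 18800306 to 18801595, plus strand) by 0.69 ± 0.10 (edgeR adjusted p = 0.0376). All 47 genes passed the filter on low counts, and 2 called of 47 compares with 9.88% of all genes tested, of which 6.8% were called higher and 3.07% lower. At an unadjusted p under 0.05 there were 14 core cell cycle genes and 7163 genes in all.

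Most of the other genes lay lower under stress without passing the test. The log2 change was negative for 36 of the 47 (28 when scaled to total counts), with a median of -0.28 over the 47 and of -0.00 over all genes. Both stress libraries lay below both controls for 25 of the 47, where 32.5% of all genes did so, and above both for 5, where 35.8% did so. Without the TMM factors, scaled to total counts alone, the median of all genes moved by 0.20 and 86.9% instead of 68.9% of all calls were higher. KRP1, KRP2 and KRP5 were then called, and 36 of the 47 changes lay below that median in either scaling.

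The study's methods limit nuclei by RNA and peak counts together, and by further measures of chromatin quality that were not applied here. The RNA and peak limits kept 1480 of 3213 and 4767 of 6133 nuclei of control replicates 1 and 2. Of stress replicates 1 and 2 they kept 6564 of 7687 and 5575 of 6499, so control replicate 1 lost the largest part. Neither call was kept with these RNA and peak limits, where the changes were 0.73 for KRP1 (edgeR adjusted p = 0.0588) and 0.63 for KRP2 (edgeR adjusted p = 0.0534), or when each nucleus was thinned to 1000 counts, where they were 0.80 (edgeR adjusted p = 0.0584) and 0.59 (edgeR adjusted p = 0.108). With equal numbers of nuclei from each library KRP2 missed the threshold (edgeR adjusted p = 0.0545). Over all 16 alternatives the adjusted p ran from 5.31e-37 to 0.357 for KRP1 and from 1.64e-12 to 0.436 for KRP2, under 0.05 in 11 and 9 of them.

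Nor was either call kept without a pair of clusters that took up unequal parts of the libraries. Clusters 0 and 4, where KRP1 was high, held 9.15% and 1.99% of the control nuclei and 39.0% and 40.6% of the stress nuclei, and with them 38.7%, 5.83%, 66.9% and 64.9% of the KRP1 counts of each library. Without these clusters the change of KRP1 was 0.45 (edgeR adjusted p = 0.357) and that of KRP2 was 0.65 (edgeR adjusted p = 0.0867), 0 of the 47 genes (6 at an unadjusted p under 0.05) and 1.04% of all genes were called by edgeR, and 24 of the 47 changes were positive. Of the KRP1 counts of control replicate 2, 43.3% came from cluster 7, which held 20.09% of its nuclei but 3 and 11 nuclei of the stress libraries. Leaving out either stress library, which left 1 library in the group so that the controls alone set the spread, left no gene called by edgeR, with 3 and 2 of the 47 at an unadjusted p under 0.05. Leaving out control replicate 1 gave 20 called of the 47 against 58.3% of all genes, and leaving out control replicate 2 gave 34 against 60.7%. With DESeq2, CYCD4;1 and SMR1 were called besides KRP1 and KRP2, against 16% of all genes.

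**Figure D3:**
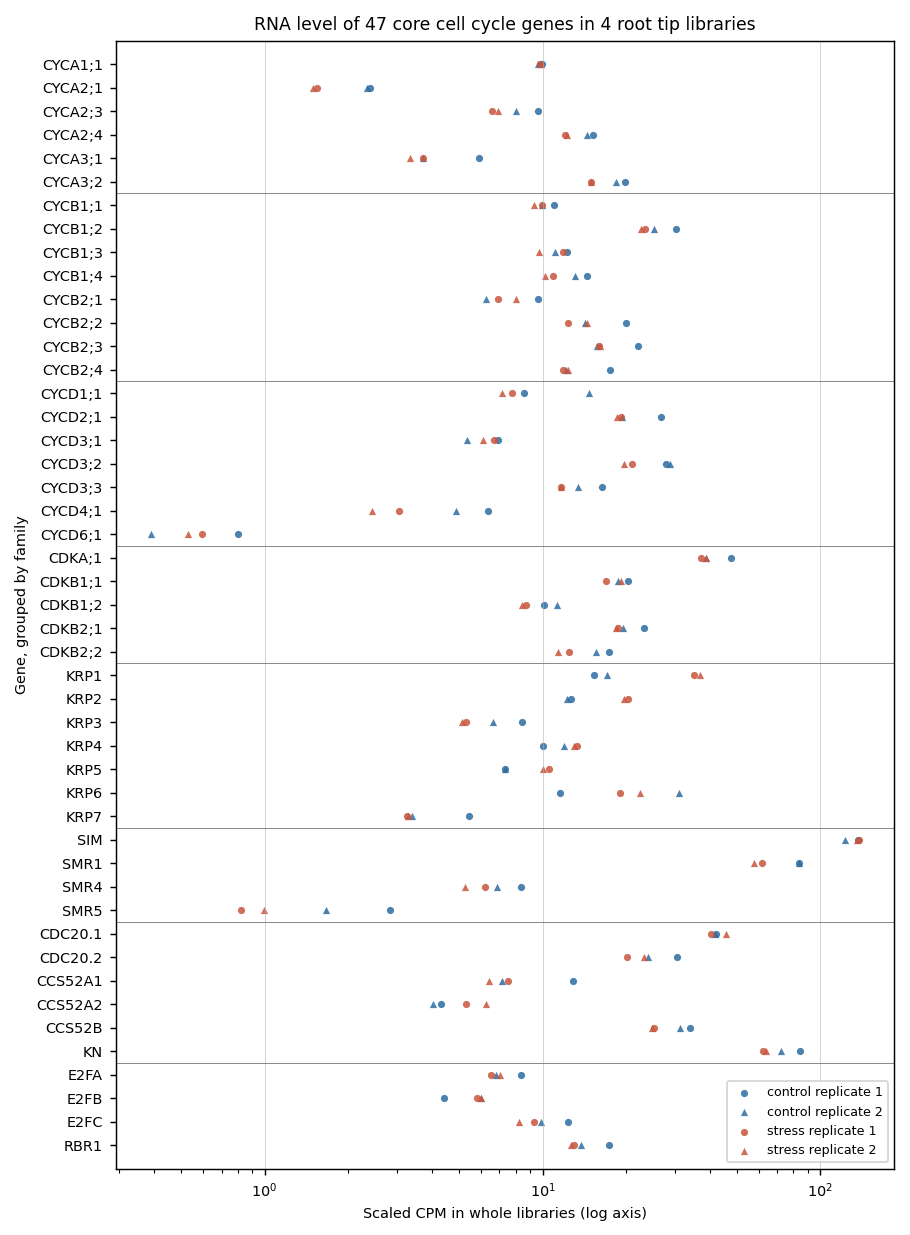
Scaled CPM of each of the 47 genes (vertical axis, lines between families) in the 4 whole libraries (horizontal axis, log scale), with 1 point for each library, blue for control, red for stress, circles for replicate 1 and triangles for replicate 2. KRP1 and KRP2 are the genes whose red points lie to the right of the blue ones and passed the test, while for 25 genes both red points lie to the left of both blue ones, as for 32.5% of all genes tested.

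None of the 6 A-type cyclins was called. CYCA2;1 stood at 2.40 and 2.34 scaled CPM in the controls and at 1.54 and 1.496 under stress. CYCA3;2 stood at 19.8 and 18.3 in the controls and at 14.9 and 15.0 under stress. Both lay lower in both stress libraries, by -0.64 ± 0.19 and -0.35 ± 0.11 on the log2 scale (edgeR adjusted p = 0.0984 and 0.104). Both stress libraries lay below both controls for 4 of the 6, where 32.5% of all genes did so, and the family's median change was -0.37.

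The 8 B-type cyclins all had negative changes (5 of 8 when scaled to total counts), from -0.38 to -0.07 with a median of -0.25, and none was called. CYCB1;4 stood at 14.5 and 13.1 in the controls and at 10.9 and 10.2 under stress, a change of -0.38 ± 0.12 (edgeR adjusted p = 0.113). CYCB1;2 stood at 30.3 and 25.2 in the controls and at 23.3 and 22.6 under stress, a change of -0.27 ± 0.13 (edgeR adjusted p = 0.224). These were the only B-type cyclins whose groups did not overlap, where 32.5% of all genes lay below both controls in both stress libraries. The sign was not kept without clusters 0 and 4, where 7 of the 8 changes were positive, with that of AT5G06150 at 0.11.

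Of the D-type cyclins, CYCD4;1 had the largest change, at 6.34 and 4.89 in the controls and 3.03 and 2.44 under stress. CYCD3;2 stood at 27.8 and 28.8 in the controls and at 21.0 and 19.7 under stress. Both genes were lower in both stress libraries and missed the threshold narrowly, with changes of -1.03 ± 0.22 (edgeR adjusted p = 0.0604) and -0.48 ± 0.10 (edgeR adjusted p = 0.0596). CYCD4;1 is known from the start of division in the pericycle and CYCD3;2 is a target of cytokinin. Of the other 5, both stress libraries lay below both controls for 3, where 32.5% of all genes did so. AT4G03270 stood at 0.801, 0.390, 0.597 and 0.528, with groups that overlapped.

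Changes of the 5 CDKs ran from -0.47 to -0.11, though 3 of the 5 were positive when scaled to total counts, and none was called. CDKB2;2 stood at 17.4 and 15.6 in the controls and at 12.5 and 11.3 under stress, a change of -0.47 ± 0.13 (edgeR adjusted p = 0.0845). CDKA;1 stood at 47.8 and 38.9 in the controls and at 37.3 and 38.9 under stress. Its control libraries differed by more than control replicate 2 differed from either stress library, and the change was -0.19 ± 0.14 (edgeR adjusted p = 0.387).

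Beside KRP1 and KRP2, the KRP family moved in both directions without further calls. KRP5, which is known to promote root growth, stood at 7.33 and 7.34 in the controls and at 10.5 and 10.0 under stress (0.49 ± 0.12, edgeR adjusted p = 0.0715). KRP3 changed by -0.52. KRP6 stood at 11.5 and 31.0 in the controls, with both stress libraries between these values at 19.0 and 22.5.

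In the SIM/SMR family, SMR5, known as a target of DNA damage signalling, stood at 2.83 and 1.67 in the controls and at 0.821 and 0.998 under stress, on 33 to 47 counts a library. SIM stood at 137 and 122 in the controls and at 138 and 136 under stress. SMR5 was lower in both stress libraries (-1.28 ± 0.35, edgeR adjusted p = 0.0866), whereas the groups overlapped for SIM (0.08 ± 0.12, edgeR adjusted p = 0.666). SMR1, at 83.8 and 83.5 in the controls and 61.6 and 57.9 under stress, changed by -0.49 ± 0.10 (edgeR adjusted p = 0.0582). SIM and SMR1 each overlap a gene on the opposite strand, AT5G04475 and AT3G10527. Whether counting used the strand is not given in the sources used here, so counts of SIM and SMR1 may hold reads of these neighbours. Others of the 47 overlap a gene on the opposite strand as well, among them KN, RBR1, CCS52B and KRP4, with the same limit. CYCD3;1 overlaps AT4G34150 and CCS52A2 overlaps AT4G05930 on the same strand, so their counts may hold reads of these genes.

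Of the APC/C activators and KN, CCS52A1 had the largest change and no call. It stood at 12.9 in control replicate 1 and at 7.13, 7.51 and 6.43 in the other libraries, so that 1 control library set the difference (-0.51 ± 0.32, edgeR adjusted p = 0.315). KN stood at 84.2 and 72.4 in the controls and at 62.1 and 63.5 under stress (-0.32 ± 0.12, edgeR adjusted p = 0.154), and its change was 0.05 without clusters 0 and 4. CCS52A2 was the member of the group above both controls in both stress libraries, with a change of 0.47.

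E2FC stood at 12.4 and 9.89 in the controls and at 9.30 and 8.24 under stress, and RBR1 stood at 17.4 and 13.8 in the controls and at 13.0 and 12.6 under stress. Neither pair of groups overlapped, and neither gene was called (-0.34 ± 0.17 and -0.28 ± 0.15, edgeR adjusted p = 0.224 and 0.266). E2FA and E2FB had groups that overlapped.

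Inside the G2/M-like class, each library's nuclei of that class were summed and tested alone, which removes differences in the number of dividing nuclei. Of the 47 genes 40 passed the filter on low counts there, and SIM was the only one called, against 7.14% of the 13732 genes tested. At an unadjusted p under 0.05 there were 8 of the 40. SIM stood at 16.9 and 32.4 scaled CPM in G2/M-like nuclei of the controls, from 19 and 51 counts, and at 68.9 and 65.8 in those of the stress libraries, from 162 and 123 counts. Both stress libraries lay above both controls, though control replicate 2 lay well above control replicate 1. SIM (chromosome 5, 1266625 to 1267416, minus strand) rose by 1.40 ± 0.26 (edgeR adjusted p = 0.0156). No cyclin, CDK, KRP gene or APC/C activator was called in this fit, nor was KN, which came nearest, at 1067 and 989.6 in the controls and 801 and 853 under stress (-0.31 ± 0.09, edgeR adjusted p = 0.0760). KN was called without the filter on low counts (edgeR adjusted p = 0.0158), when the 47 genes were kept in the clustering (edgeR adjusted p = 0.0421) and without either control library, but not with DESeq2 (adjusted p = 0.394). CYCD3;3, with a change of -1.05 ± 0.33 (edgeR adjusted p = 0.102), was called without the filter (edgeR adjusted p = 0.00472) and without control replicate 2 (edgeR adjusted p = 0.00114), but not with DESeq2 (adjusted p = 0.304). The median change of the 40 genes was -0.24, and that of all genes in the class was 0.00.

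The rise of SIM differed between G2/M-like nuclei and the rest. In all other nuclei its change was 0.04, and the difference of the changes, fitted as an interaction with the library as a term, was 1.29 ± 0.24 (edgeR adjusted p = 0.00233). SIM was the only core cell cycle gene called in this fit, from which the filter on low counts dropped CYCD6;1, against 1.98% of all genes. The value of 0.04 is taken over nuclei whose make-up differed between the libraries. Cluster 5 held 39.3% and 30.2% of the SIM counts of the controls but 8.74% and 8.67% of those under stress, cluster 13 held 14.6% of those of control replicate 1, and SIM rose within cluster 2, as given below.

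Markers of other cell types moved with SIM in the same nuclei. Of 11 lists of markers of other cell types, the summed level lay above both controls in both stress libraries for 8, overlapped for 2 (atrichoblast and lateral root cap) and lay below for 1, the quiescent centre and stem cell niche, at 187 and 201 scaled CPM in the controls and 149 and 144 under stress. The summed scaled CPM of 9 pericycle and stele markers in G2/M-like nuclei was 150 and 261 in the controls and 697 and 747 under stress, that of 8 cortex markers 12.4 and 28.0 against 59.1 and 77.0, and that of 9 endodermis markers 71.0 and 80.8 against 202 and 178. None of the markers of these 3 lists was at 0 in all libraries. The same 3 lists also lay above both controls in both stress libraries over all nuclei, so their rise was not particular to this class. There the sums were 397 and 642 against 1366 and 1418 for pericycle and stele, and 51.8 and 74.6 against 142.3 and 141.7 for cortex. For endodermis they were 248 and 341 against 502.5 and 529. The ratio of the group means was 2.68, 2.25 and 1.75 over all nuclei and 3.51, 3.37 and 2.50 in G2/M-like nuclei. Phloem and xylem markers also lay above both controls over all nuclei, but those of trichoblast, suberin endodermis and columella overlapped there. Trichoblast markers stood at 120 and 130 against 290 and 263 in G2/M-like nuclei, and at 632 and 410.5 against 628 and 662 over all nuclei. Stem cell niche markers, lower in the class, stood at 132.5 and 127.7 against 134.2 and 134.3 over all nuclei. In G2/M-like nuclei the 12 G2/M markers themselves overlapped between the groups, from 1604 to 2055. The part of these markers in the rise of SIM was not tested. Leaving out either stress library ended the call (edgeR adjusted p = 0.493 and 0.483), with changes of 1.38 and 1.45, and so did the RNA and peak limits (1.31, edgeR adjusted p = 0.103). DESeq2 kept it, and over all 10 alternatives the adjusted p ran from 3.26e-07 to 0.493.

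**Figure D4:**
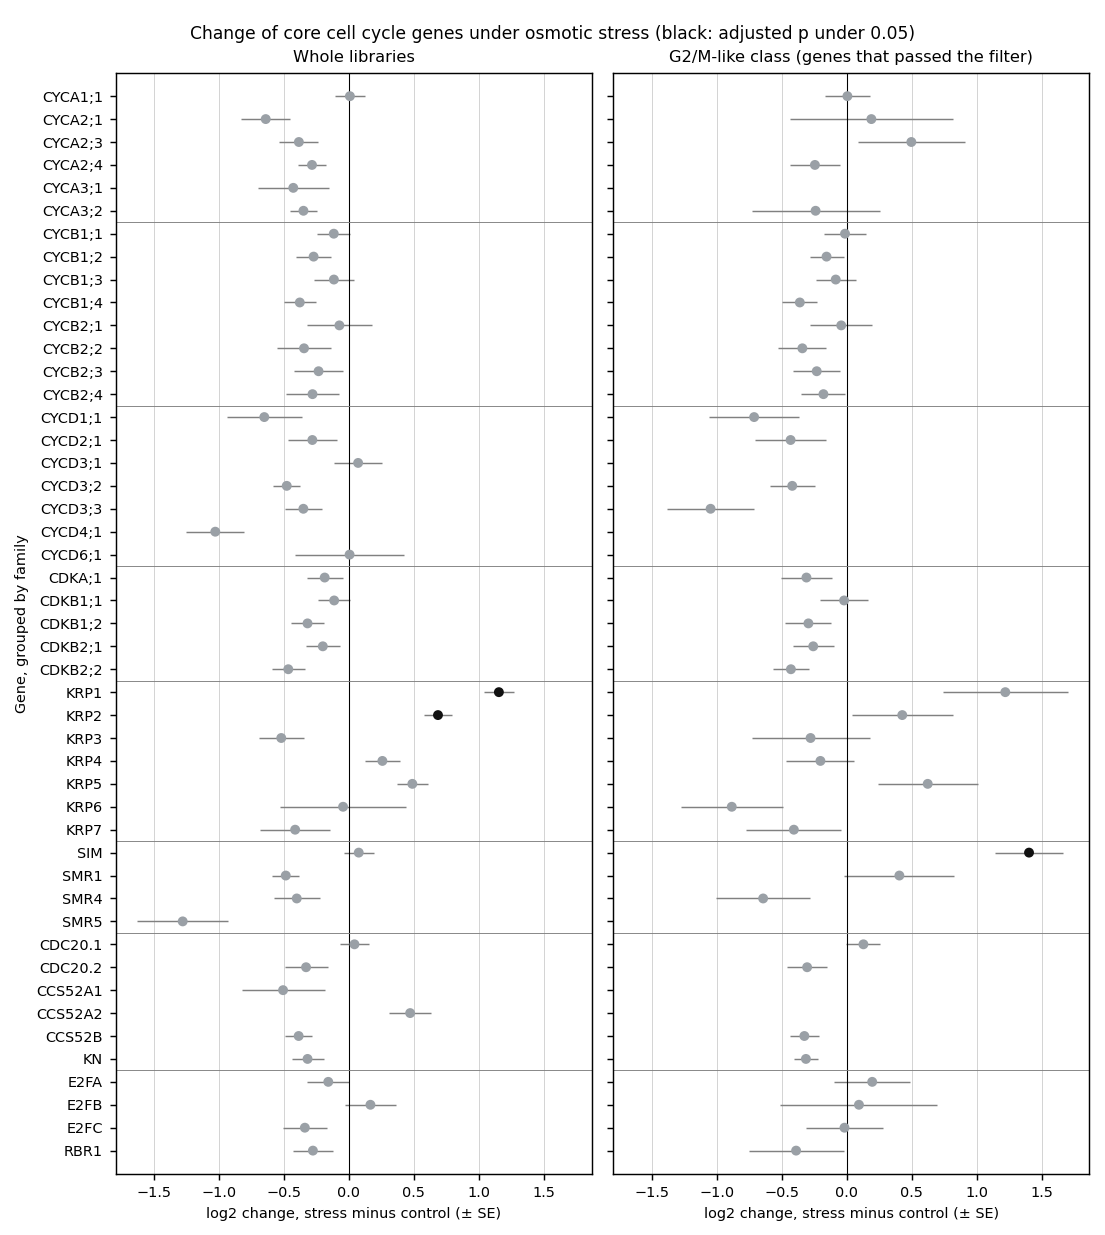
Log2 change from control to stress (horizontal axis, bars show the SE) of the 47 genes (vertical axis, lines between families) in whole libraries on the left and in the G2/M-like class on the right, where the 40 genes that passed the filter are drawn, with called genes in black. KRP1 at 1.15 and KRP2 at 0.69 are called on the left and SIM at 1.40 on the right, and on the left 36 of the 47 genes lie below 0 (28 when scaled to total counts).

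The share of nuclei in the G2/M-like class was 4.08% and 3.21% in the controls and 3.54% and 3.40% under stress. The stress values lay between the control values, and the log2 change of the share was -0.07 ± 0.43 (edgeR adjusted p = 0.878), so a difference was not detectable with these libraries. The change was -0.41 ± 0.73 with the RNA and peak limits and -0.24 ± 0.53 at a resolution of 1.0.

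At that finer resolution a cluster of 713 and 689 control and 82 and 42 stress nuclei took the name S phase-like, on 3 detected markers, and its share changed by -4.28 ± 0.59 (edgeR adjusted p = 2.95e-06). A further cluster, with 7 detected S phase markers, stayed unnamed and held 94 and 35 control and 585 and 471 stress nuclei. Both drew on cluster 1 of the main clustering, of which they took 36.8% and 48.7%. From it the S phase-like cluster took 459 and 428 control and 7 and 2 stress nuclei, and the unnamed one 94 and 35 control and 584 and 471 stress nuclei. The finer clustering thus divided cluster 1 largely by group, so the change of the share cannot be read as a change in the number of S phase nuclei. Over all nuclei the summed level of the 14 S phase markers was 1106 and 1197 scaled CPM in the controls and 832 and 791 under stress, groups that did not overlap, and in G2/M-like nuclei it overlapped, from 486 to 625.

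In trichoblast-like nuclei, the root hair cells, KRP1 was the only gene called of 40 that passed, against 17.3% of all genes there. It stood at 8.79 and 4.95 scaled CPM in the controls and at 23.1 and 20.09 under stress, groups that did not overlap (1.59 ± 0.33, edgeR adjusted p = 0.0204). The control values rest on few counts, as these nuclei held 4.03% and 0.833% of the 248 and 480 KRP1 counts of the controls. The call was not kept with DESeq2 (adjusted p = 0.0629) or with the RNA and peak limits (edgeR adjusted p = 0.128), and over 10 alternatives the adjusted p ran from 0.000101 to 0.159. The class held 261 and 136 control and 965 and 824 stress nuclei, and its make-up differed between the groups: at a resolution of 1.0, 55.1% of it fell in an unnamed cluster with 74 and 11 of its control and 608 and 511 of its stress nuclei. In the trichoblast-like class of that resolution, with 147 and 118 control and 299 and 260 stress nuclei, KRP1 changed by 2.06 (edgeR adjusted p = 0.0293).

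KRP1 also rose in cluster 5, from 2.43 and 1.86 to 9.05 and 14.5 (2.44 ± 0.39, edgeR adjusted p = 0.00588), as the only gene called of 38 that passed, against 12.8% of all genes. The control values rest on few counts, as cluster 5 held 4.03% and 2.29% of the 248 and 480 KRP1 counts of the controls. It numbered 619 and 702 control nuclei (19.27% and 11.45%) and 371 and 272 stress nuclei (4.826% and 4.185%). DESeq2 kept this call, and over 8 alternatives the change ran from 2.07 to 2.75. In clusters 0 and 4, where KRP1 was highest, it did not rise: the changes were -0.47 and -0.26. There the only call was CYCB1;2 in cluster 0, from 22.3 and 26.2 to 7.59 and 6.61 (-1.72 ± 0.44, edgeR adjusted p = 0.0189, and 0.143 without control replicate 1), against 7.03% of all genes, while cluster 4 had none of 32 that passed (2 at an unadjusted p under 0.05) against 7.76%. In pericycle and stele-like nuclei KRP1 was counted 0 times in both controls and 38 and 50 times under stress. A count of 0 allows up to 3 counts, or 24.1 and 23.8 scaled CPM in those small control sums, which is above or near the 16.4 and 24.2 under stress, so a difference was not detectable at this depth.

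Cortex-like nuclei held 5 of the calls, with SMR1 at 302 and 394 scaled CPM in the controls and 107 and 91.1 under stress. The fall of SMR1 was 1.81 on the log2 scale (change -1.81 ± 0.20, edgeR adjusted p = 0.00756) and the groups did not overlap. The cyclins CYCD4;1 (-2.27 ± 0.36, edgeR adjusted p = 0.0133), CYCD3;1 (-1.42 ± 0.24, edgeR adjusted p = 0.0155) and CYCA2;3 (-1.77 ± 0.35, edgeR adjusted p = 0.0219) fell as well, and KRP5 rose from 1.91 and 0.963, on 2 and 1 counts, to 6.50 and 7.11 (2.21 ± 0.56, edgeR adjusted p = 0.0405). The call of KRP5 was not kept without control replicate 2 (edgeR adjusted p = 0.0937), with the 47 genes kept in the clustering (edgeR adjusted p = 0.147) or with the RNA and peak limits (edgeR adjusted p = 0.250), and DESeq2 gave it no adjusted p. With the 47 genes kept in the clustering SMR1 was the only one of the 5 called, and with the RNA and peak limits none was. These 5 calls of 40 genes that passed compare with 20.4% of all genes in the class. The class joins clusters of different make-up: cluster 4 held 127 and 37 control and 1004 and 893 stress nuclei, and cluster 12 held 132 and 154 control and 169 and 145 stress nuclei. Within cluster 4 none of the 5 genes was called and SMR1 stood at 62.3 and 18.0 against 61.9 and 55.8. Within cluster 12 SMR1 stood at 449.9 and 429 against 309.7 and 252 (-0.64 ± 0.18, edgeR adjusted p = 0.0606), and the only call was KRP2, which rose from 33.7 and 27.4 to 56.8 and 69.0 (1.06 ± 0.27, edgeR adjusted p = 0.0432), against 5.33% of all genes. That call was not kept with DESeq2 (adjusted p = 0.448) or without control replicate 2 (edgeR adjusted p = 0.0980), and over 8 alternatives the adjusted p ran from 0.00482 to 0.448.

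No core cell cycle gene was called by edgeR or DESeq2 in endodermis-like, lateral root cap-like or pericycle and stele-like nuclei. In these classes 4, 24 and 20 genes passed the filter, 1, 5 and 4 had an unadjusted p under 0.05, and 2.21%, 3.52% and 0.977% of all genes were called. SIM rose in cluster 2, from 146 and 137 to 235 and 231 (0.73 ± 0.19, edgeR adjusted p = 0.0478), against 8.3% of all genes. The call was not kept with DESeq2 (adjusted p = 0.228) or with the RNA and peak limits (edgeR adjusted p = 0.0667), and over 8 alternatives the adjusted p ran from 5.15e-10 to 0.677. At a resolution of 1.0 cluster 2 divided mainly into a cluster with 113 and 84 of its control and 745 and 649 of its stress nuclei and a cluster with 30 and 550 of its control and 3 and 1 of its stress nuclei, so most of control replicate 2 lay apart from the stress nuclei. Leaving out either stress library left none of the calls within a class or cluster. In all nuclei outside the G2/M-like class KRP1 and KRP2 were called as in whole libraries, with changes of 1.14 and 0.68, against 10.7% of all genes.

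**Figure D5:**
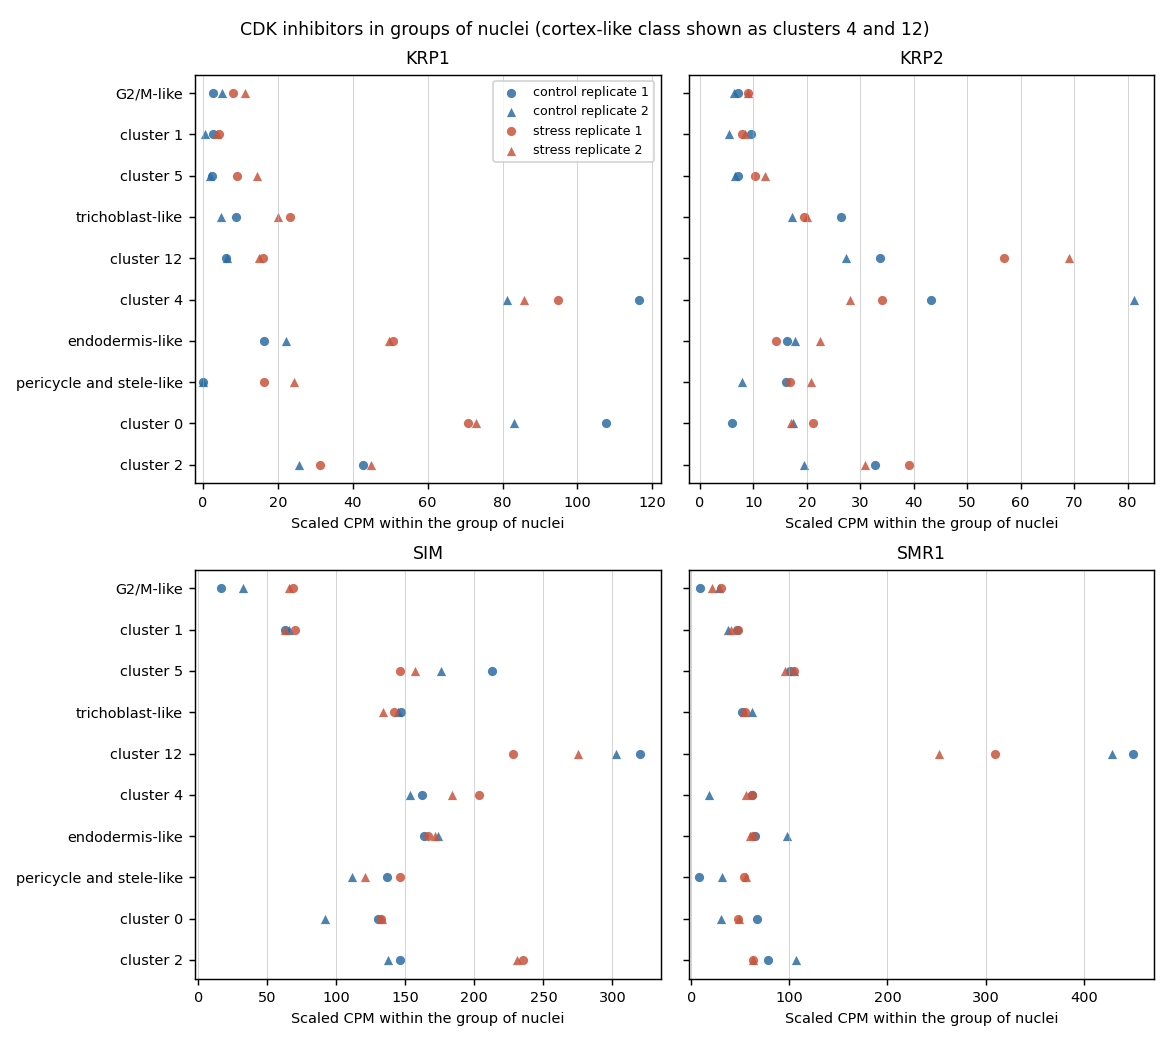
Scaled CPM of the inhibitors KRP1, KRP2, SIM and SMR1 (horizontal axes) within 10 groups of nuclei (vertical axis), with 1 point for each library, blue for control, red for stress, circles for replicate 1 and triangles for replicate 2. KRP1 lies further right under stress in the trichoblast-like class and in cluster 5 but not in clusters 0 and 4, and SIM lies further right under stress in G2/M-like nuclei.

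None of the 34 gene starts tested was called by edgeR as changed in its accessible chromatin, and DESeq2 called 1, at SMR4. A region called as a peak covered the start of 41 of the 47 genes, and 34 starts lay in regions called in all 4 libraries and were tested. KRP2 and KRP5 were not tested, as the regions over their starts were called in 3 libraries. No region covered the start of SIM, SMR1 or CYCD4;1. Peak counts of the same nuclei, summed per library and scaled in the same way over 18340 regions, gave 0 calls among the 34 by edgeR, against 0.213% of all regions, with 3 of the 34 at an unadjusted p under 0.05. The region over the start of KRP1 (chromosome 2, 9977857 to 9978796) stood at 100.1 and 98.5 scaled CPM in the controls and at 92.2 and 96.4 under stress (-0.07 ± 0.06, edgeR adjusted p = 0.548). The change nearest to the threshold was at SMR4 (chromosome 5, 442152 to 443052), at 95.8 and 91.8 in the controls and 79.5 and 76.0 under stress (-0.27 ± 0.05, edgeR adjusted p = 0.0969). Changes of all 34 ran from -0.27 to 0.10. Both stress libraries lay below both controls at 12 of the 34, where 25.5% of all regions did so, and above both at 2, where 25.6% did so.

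Other genes of the cell cycle were read in the same whole-library fit from 8 lists of 93 genes that hold none of the 47, of which 91 were tested. Of these 1 rose and 4 fell, where 6.8% of all genes tested were called higher and 3.07% lower. Of 16 genes for replication licensing, ORC6, a subunit of the origin recognition complex, fell from 10.2 and 9.33 to 5.47 and 5.90 (-0.78 ± 0.13, edgeR adjusted p = 0.0442). Of 5 genes for the histone H3 that is laid down in replication, HTR13 (-0.83 ± 0.12, edgeR adjusted p = 0.0352) and HTR1 (-0.68 ± 0.11, edgeR adjusted p = 0.0398) fell. Among 12 other inhibitors and E2F partners, SMR2 rose from 3.08 and 3.16 to 9.32 and 9.59 (1.60 ± 0.13, edgeR adjusted p = 0.0193) and SMR6 fell (-0.89 ± 0.17, edgeR adjusted p = 0.0499). None of the 10 genes for DNA synthesis, the 18 for mitosis and cytokinesis, the 4 MYB3R factors, the 13 APC/C subunits and inhibitors or the 13 other cyclins and CDK partners tested was called by edgeR, with 10 of these 58 at an unadjusted p under 0.05. In G2/M-like nuclei 74 of the 93 were tested and 0 called by edgeR, against 7.14% of all genes in the class, with 10 at an unadjusted p under 0.05.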

How the data were processed

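Per the labels and methods, the authors ran Cell Ranger ARC 2.0.2 on each library against TAIR10 and deposited counts of RNA molecules per gene and of transposition events per peak. The deposited counts covered 3431 to 7827 barcodes a library. These deposited counts were summed per library over barcodes with over 1000 and under 25000 RNA counts, as libraries and not nuclei are the replicates. The tests used edgeR 4.0.16 in R 4.3.3 (filterByExpr, TMM, quasi-likelihood, Benjamini-Hochberg over all features tested, 0.05), with DESeq2 1.42.0 as an alternative. The test was checked on simulated counts with the same spread set for every library. That check does not cover the unequal spread of the control and stress libraries. SEs of changes were taken as |log2 change|/√F. Peaks were merged over libraries, and regions called in all 4 were tested. Nuclei were clustered without the 47 genes with scanpy 1.11.5 and leidenalg 0.10.2 (2000 variable genes, 30 components, 20 neighbours, resolution 0.6). A cluster was named when at least 3 markers and 20% of a list were detected in 10% of its nuclei at over 2 times the level elsewhere, with a lead of 1.5 over the next list, thresholds chosen after seeing the data. A class was tested where each library held 20 or more of its nuclei. Doublets were kept. Gene identifiers were matched to TAIR10.1 for 32548 of 32833 genes.

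The genes, lists, markers, tests and alternatives were chosen with earlier results of these data known. Values in every library are printed for genes called in whole libraries and, in each family, for the gene with the largest change and the gene with the highest mean, and genes called in a class are named. Intervals and the limit of 3 counts cover counting error only.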

Additional observations from a re-analysis of the deposited data

Results flagged for a closer look

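The change of SIM under osmotic stress differed between G2/M-like nuclei, where it was 1.40, and all other nuclei, where it was 0.04, by 1.29 ± 0.24 on the log2 scale (edgeR interaction, adjusted p = 0.00233, 2 against 2 libraries). Both stress libraries lay above both controls in G2/M-like nuclei. SIM was the only core cell cycle gene called in the interaction fit, against 1.98% of all genes, and that fit was run in the main setting only. The call of SIM within G2/M-like nuclei was not kept with the RNA and peak limits or without either stress library. The other nuclei differed in make-up between the libraries, with cluster 5 holding 39.3% and 30.2% of the SIM counts of the controls and 8.74% and 8.67% of those under stress, and their part in the difference was not tested. It was singled out as a difference between groups of nuclei under the same contrast. No test of outlying samples was made, since each group holds 2 libraries.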

How the results depend on the processing

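In whole libraries, 2 of the 47 genes were called, against 9.88% of all genes. The number was 4 with DESeq2 (16% of all genes), 9 with every barcode (14.8%), 8 without clusters 10 and 13, each from 1 library (20.6%, chosen after seeing the data), 1 with as many nuclei from each library (8.11%), and 0 by edgeR with the study's limits on RNA and peak counts (4.76%, and 15 of the 47 at an unadjusted p under 0.05), with counts thinned to 1000 per nucleus (2.92%, and 5 of 46) or without clusters 0 and 4 (1.04%, chosen after seeing the data). Leaving out 1 library gave 0 to 34, where 0 to 12744 genes in all were called. Within the 6 classes, 7 pairs of gene and class were called, 0 with the RNA and peak limits (23 at an unadjusted p under 0.05), and 0 to 23 when 1 library was left out, where a lone library was assumed to vary like the other group. The share of G2/M-like nuclei changed by -0.41 instead of -0.07 with the RNA and peak limits, by -0.24 at a resolution of 1.0, by 0.0107 when the 47 genes were kept in the clustering and by -0.23 to 0.11 when 1 library was left out. At gene starts, DESeq2 called 1 region and leaving out 1 library gave 0 to 3. The log2 change reversed for CYCB1;2 (0.11) and KN (0.0526) without clusters 0 and 4, for CDKA;1 with total counts (0.0158) or the RNA and peak limits (0.00203), for CCS52A1 with those limits (0.15) and for SIM without control replicate 2 (-0.0214, and 0.158 without control replicate 1). With the replicate number as a block, 1 gene (KRP1, with KRP2 at an edgeR adjusted p of 0.0664) was called in whole libraries, 9 pairs in classes (with CYCD3;3 and KN in G2/M-like and KRP1 in cortex-like nuclei, and without KRP5 in cortex-like nuclei) and 0 regions, SIM in cluster 2 and CYCB1;2 in cluster 0 had edgeR adjusted p of 0.111 and 0.0523, and the G2/M-like share changed by -0.06. The numbers pair no samples, as same-numbered deviations correlated at 0.11 over only 2 numbers. Depth limits genes such as CYCD6;1, with 11 to 24 counts a library.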
